A study of Danio rerio with 3 samples.

Results

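Transcripts of 10 genes that regulate skeletal muscle formation were compared between zebrafish embryos injected with MO-grnA and untreated embryos of the wild type. All embryos were taken at 22 hours post fertilization (hpf). The genes are the myogenic regulatory factors myf5, myod1, myog and myf6, the paired box genes pax3a, pax7a and pax7b, the MEF2 genes mef2ca and mef2d, and prdm1a. A probe belonged to one of them when the RefSeq accession in the array files maps to its symbol. This held for 14 of 43603 probes, which cover 9 of the 10 genes, and no probe maps to pax7b. Of the 14 probes, 11 could be tested, for 8 genes, out of 9227 named genes tested in all.

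MO-grnA is a morpholino, a synthetic oligomer that pairs with a chosen RNA. It targets granulin A, a zebrafish relative of the growth factor progranulin. The injected embryos received 2 to 3 nl at the 1-cell stage. Wild-type embryos had no treatment, which means that the ratios cannot separate the morpholino from the act of injection. The labels do not say whether the morpholino blocks translation or splicing. RNA came from pools of 200 whole embryos per group, in 3 biological replicates, and no muscle was isolated. Each replicate is an Agilent array with 2 colours that paired morphant with wild-type RNA. Morphant RNA carried Cy5 on arrays 1 and 2 and Cy3 on array 3, the dye swap.

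In vertebrate somites, Pax3 and Pax7 mark cells that can become muscle, Myf5 and MyoD commit them to the muscle lineage, and myogenin, Mrf4 (the product of myf6) and the MEF2 proteins drive the genes of the contractile apparatus. In zebrafish, Prdm1a acts downstream of Hedgehog signals from the midline to direct adaxial cells to the slow fibre fate. Several of these genes are also active elsewhere, pax3a, the pax7 genes and prdm1a in the neural crest, and mef2ca in the heart and the head skeleton.

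Among these regulators, prdm1a and myf5 were lower in morphants and mef2ca and mef2d were higher, while myod1, myog, myf6 and pax3a did not pass the test. A gene was called when its adjusted p was under 0.05 in limma's moderated test of the log2 ratio of morphant over wild type against 0. The adjustment (Benjamini-Hochberg) ran over all 25066 tested probes, and the brightest tested probe stood for a gene. The 8 tested members gave 2 rises, 2 falls and 4 genes that did not pass. By probe, 7 of the 11 tested member probes were called, beside 37.6% of all tested probes. Over all tested genes 41.3% were called, 19.3% higher and 22.0% lower, so a called share of 4 in 8 is near that of all genes. The ratio had the same sign on all 3 arrays for 5 of the 8 members, beside 68.2% of all tested genes. The median log2 ratio was -0.06 over the members and -0.001 over all tested genes. In RNA of whole embryos, fewer cells of a type and less RNA per cell cannot be told apart.

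**Figure D1:**
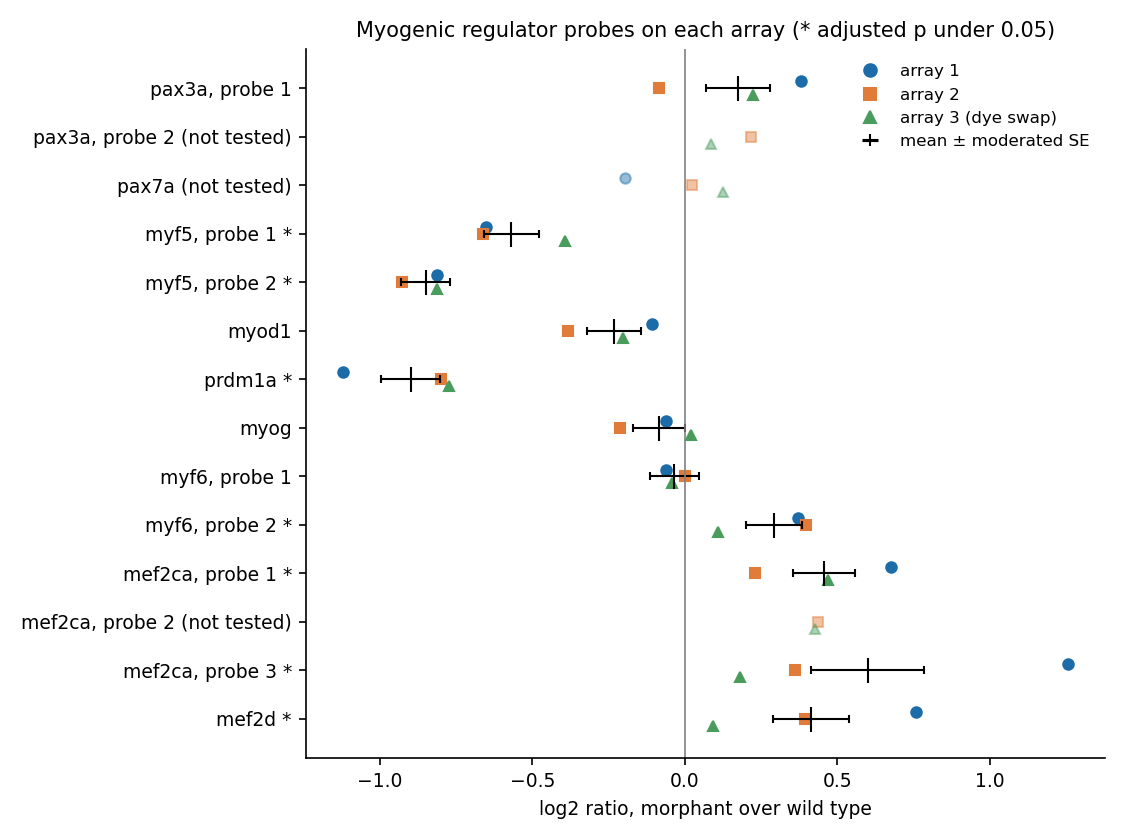
Log2 ratio of morphant over wild type (x axis) of the 14 probes of 9 genes on each of the 3 arrays, with the mean and its moderated standard error for the 11 tested probes. The probes of prdm1a and myf5 lie below 0 and those of mef2ca and mef2d above 0 on every array with a value, while the tested pax3a probe and myog lie on both sides.

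The largest difference among the members was that of prdm1a. Its normalized log2 intensity in wild-type RNA was 14.49, 14.37 and 14.38 on arrays 1, 2 and 3, and in morphant RNA 13.37, 13.57 and 13.61. All 3 wild-type values were above all 3 morphant values. The log2 ratios were -1.12, -0.80 and -0.77, and their mean was -0.90 (SE 0.10, n = 3, adjusted p = 3.3e-04 in limma). This is a 1.86-fold lower level in morphants. Of the 9227 tested genes, 287 (3.11%) had a lower ratio. A single probe reports prdm1a.

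Of the determination genes, myf5 was called and myod1 was not, and the difference between them was not tested. The brighter myf5 probe read 13.72, 14.08 and 14.02 in wild-type RNA and 13.07, 13.42 and 13.63 in morphant RNA, as log2 intensity. Each morphant value was below its partner on the same array, and all 3 were also below the lowest wild-type value. The log2 ratio was -0.65, -0.66 and -0.39, with a mean of -0.57 (SE 0.09, adjusted p = 0.00215 in limma), or 1.48-fold lower. A second myf5 probe fell by 0.85 on the log2 scale (SE 0.08, adjusted p = 1.8e-04), with -0.81, -0.93 and -0.81 on the 3 arrays. Both probes of myf5 thus fell on every array, by amounts that differ from probe to probe.

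The single myod1 probe was below 0 on every array, at -0.11, -0.38 and -0.20, but its mean of -0.23 (SE 0.09, adjusted p = 0.0733 in limma) did not pass the threshold. Its wild-type log2 intensities of 13.50, 14.01 and 13.97 overlapped the morphant values of 13.39, 13.63 and 13.76. Without array 1, that is on slide 2 alone, the mean was -0.29 and passed (adjusted p = 0.0395). The adjusted p over all alternatives lay between 0.0395 and 0.951.

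Among the differentiation factors, the later myogenic regulatory factors were not called by their brightest probes. The myog probe read 14.68, 14.25 and 14.18 in wild-type RNA and 14.61, 14.03 and 14.20 in morphant RNA, so that the groups overlapped. Its ratios were -0.06, -0.21 and 0.02, with a mean of -0.08 (SE 0.09, adjusted p = 0.468 in limma). For myf6 the brighter probe gave -0.06, 0.00 and -0.04, with a mean of -0.03 (SE 0.08, adjusted p = 0.766). The dimmer myf6 probe gave 0.37, 0.40 and 0.11 and rose, with a mean of 0.29 (SE 0.09, adjusted p = 0.0377). The probes of myf6 thus disagree, at mean log2 intensities of 8.91 and 8.57, and no direction is given for the gene.

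Both MEF2 members rose. The brightest tested mef2ca probe read 12.83, 12.89 and 12.80 in wild-type RNA and 13.50, 13.12 and 13.27 in morphant RNA, with no overlap between the groups. Its ratios of 0.67, 0.23 and 0.47 had a mean of 0.46 (SE 0.10, adjusted p = 0.00969 in limma), or 1.37-fold higher. Another mef2ca probe gave 1.26, 0.36 and 0.18 and rose as well, by 0.60 (SE 0.19, adjusted p = 0.0358), with array 1 far above the others. The third was marked as an outlier on array 1 and gave 0.44 and 0.43 on arrays 2 and 3. Without array 3, the dye swap, the mean of the brightest tested probe was 0.45 and missed the threshold (adjusted p = 0.0683). Without array 1, and with marked spots kept, the third probe was the brightest and stood for the gene (0.43 and 0.45). The mean of the brightest probe of the main fit on arrays 2 and 3 was 0.35. Over all alternatives, with the probe that stood for the gene in each, the adjusted p lay between 0.00292 and 0.356.

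The probe of mef2d was dim, with a mean log2 intensity of 7.53, and its ratios of 0.76, 0.39 and 0.09 spread widely. In morphant RNA it read 8.09, 7.70 and 7.38, all above the wild-type values of 7.33, 7.30 and 7.29. The mean was 0.41 (SE 0.12, adjusted p = 0.0324 in limma), or 1.33-fold higher. The call rests on few arrays: it ended without array 1 (0.24, adjusted p = 0.0964), without array 2 (0.42, adjusted p = 0.0629) and with a dye term (0.33, adjusted p = 0.0743), within a range of 0.0254 to 0.407 over all alternatives. On slide 1, which holds array 1, the value was 0.76 against 0.24 on slide 2. Of the related genes outside the chosen members, mef2aa (-0.23, adjusted p = 0.114) and mef2cb (-0.06, adjusted p = 0.600) did not pass.

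**Figure D2:**
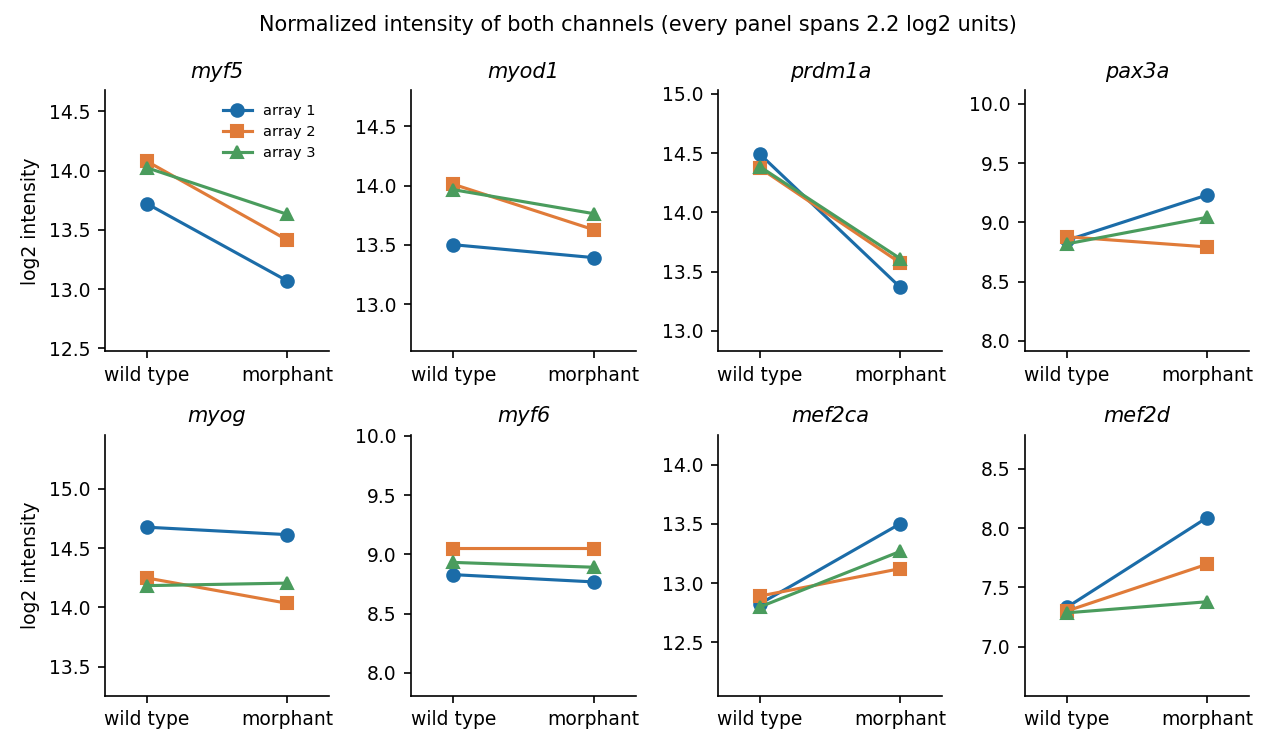
Normalized log2 intensity (y axis) of the brightest tested probe of 8 genes in the wild-type and the morphant channel of each array, joined by a line per array. The lines of prdm1a and myf5 run down and those of mef2ca and mef2d run up on all 3 arrays, while those of myog and pax3a cross or run both ways.

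Few progenitor transcripts could be measured. The tested pax3a probe gave 0.38, -0.09 and 0.22, with a mean of 0.17 (SE 0.10, adjusted p = 0.227 in limma), and its log2 intensities overlapped (8.85, 8.88 and 8.82 in wild-type RNA against 9.23, 8.79 and 9.04 in morphant RNA). A second pax3a probe was marked as an outlier on array 1 and gave 0.22 and 0.09 on arrays 2 and 3. The only pax7a probe was well above background on 2 of 3 arrays in morphant RNA and on 1 of 3 in wild-type RNA, so it was not tested. Its ratios were -0.19, 0.02 and 0.12, at a mean log2 intensity of 6.70. Values that near to background do not show whether pax7a differed.

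The progenitor genes were then set against the differentiation factors array by array. With pax3a as the only tested progenitor gene, its ratio minus the mean ratio of myog, myf6, mef2ca and mef2d was 0.06, -0.19 and 0.09 on arrays 1, 2 and 3. The mean difference was -0.01 ± 0.15 (SD, n = 3), so the sign changed between arrays and the difference was smaller than their spread. With the dim pax7a probe included it was -0.11 ± 0.14. Against the mean of all 7 other tested members, pax3a was higher on each array, by 0.46, 0.12 and 0.34 (mean 0.31 ± 0.18). That set includes the falls of prdm1a and myf5. It also includes mef2ca, which was above pax3a on each array (0.67, 0.23 and 0.47). No p is given for these differences.

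The differentiation factors themselves were split. By the brightest tested probe of each gene, the mean ratio of myog and myf6 was -0.06, -0.11 and -0.01 on the 3 arrays. That of mef2ca and mef2d was 0.72, 0.31 and 0.28. The dimmer myf6 probe, at 0.37, 0.40 and 0.11, is not part of these means. The mean of the determination genes myf5 and myod1 was -0.38, -0.52 and -0.30. It lay below the mean of the 4 differentiation factors by 0.71, 0.63 and 0.43, or -0.59 ± 0.14 (SD, n = 3) as determination minus differentiation. Against mef2ca and mef2d alone the difference was -0.84 ± 0.26. These contrasts were formed after the members' values were known.

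Some of the 9227 tested genes had nearly the same ratios as prdm1a or myf5 on all 3 arrays. For prdm1a, the closest of the other tested genes by root mean square difference over the 3 arrays were usp25 (0.01), mnat1 (0.03) and sult1st6 (0.04), and 19 genes lay within 0.1. For myf5 they were lin28ab (0.02), kdr (0.03) and hemk1 (0.04), and 91 genes lay within 0.1. With only 3 arrays this likeness is a description.

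Genes that act before the muscle regulators, in the presomitic mesoderm and the forming somite, fell together. All 10 tested genes of that list fell and none rose, with a median of -0.47 and a range of -0.97 to -0.30. That range is of the brightest probes. For tbx16 the brightest probe had -0.46 (SE 0.08) and a dimmer probe -2.11 (SE 0.13), so its probes disagree in size. The segment boundary gene ripply1 fell by 0.97 (SE 0.09, adjusted p = 1.2e-04). The T-box gene tbx6, a regulator of paraxial mesoderm, had -0.68 (SE 0.08), foxc1a, which is needed for somite formation, -0.61 (SE 0.08) and the protocadherin gene pcdh8 -0.55 (SE 0.08). The median of the list was -0.49, -0.45 and -0.54 on the 3 arrays. The same comparison gave 22.0% falls over all tested genes.

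Products of the sine oculis homeobox genes and the Eya cofactor genes work together to switch on myogenic genes. Their list also holds pbx2 (-0.27) and pbx4 (0.03), which did not pass. It gave 3 falls and no rise among 8 tested, a called share of 37.5% beside 41.3% of all tested genes. The falls were six1a (-0.59, SE 0.10), eya1 (-0.53, SE 0.08) and eya2 (-0.40, SE 0.08), and a second eya1 probe had 0.31. A dimmer six1b probe also passed, with -0.31 (SE 0.08), while the brightest probe of that gene had -0.03. Of 7 tested E protein, Id, Twist and Snail genes, which are partners or inhibitors of the myogenic factors, the E protein gene tcf12 alone was called, with -0.35 (SE 0.10, adjusted p = 0.0272). Its other probes gave 0.19 and 0.11, and its call ended without array 2 (-0.33) and without array 3 (-0.25). Dimmer probes of genes that were not called by their brightest probe also passed, with 0.55 (SE 0.08) for the Id gene id2a and -0.29 (SE 0.09) for the Snail gene snai2. The called share of this list of 7 was 14.3% with the brightest probes. With the mean of all probes of a gene, the list held 1 rise and no fall, beside 1816 rises and 1880 falls among 9227 genes.

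Of 12 tested genes in the list of slow fibre regulators and Hedgehog input, 5 fell and 2 rose. This called share of 58.3% stands beside 41.3% of all tested genes. Without array 2 the list held 1 fall and no rise, beside 1537 falls and 1301 rises among all 9284 genes tested. Without array 3 it held 3 falls and 1 rise, beside 1482 falls and 1122 rises among 9288. The falls with the smallest p were the ligand gene shhb (-0.55, SE 0.09), the chemokine gene cxcl12a (-0.41, SE 0.08, second probe -0.03) and the Hedgehog effector gene gli1 (-0.32, SE 0.08, second probe -0.35). Both rises were muscle genes of the Smyd methyltransferase family, smyd1a (0.37, SE 0.09, second probe 0.30) and smyd1b (0.28, SE 0.09). The calls of cxcl12a (-0.36), gli1 (-0.29) and smyd1a (0.35) ended without array 2, and that of gli1 also without array 3 (-0.33). Among FGF and migration genes, with a called share of 30%, 3 of 10 fell and none rose. They were fgf8a, a ligand that promotes fast muscle differentiation (-0.73, SE 0.08, other probes -0.75 and -0.45), fgfr4 (-0.61, SE 0.09, second probe -0.11) and the receptor gene met (-0.26, SE 0.08). The call of met ended without array 2 (-0.26) and without array 3 (-0.23). Of 6 tested genes for myoblast adhesion and fusion, dock5 rose (0.49, SE 0.11) and 5 did not pass, a called share of 16.7%. The dock5 probe was dim, at a mean log2 intensity of 6.96, and its value ran from 0.33 to 1.16 over the alternatives. Probes of the fusion gene mymk disagree, with -0.23 (SE 0.09) for the brightest. Its dimmer probe passed with 0.63 (SE 0.15, adjusted p = 0.0125 in limma).

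Many contractile genes, the targets of the differentiation factors, rose. Of 23 tested genes of the fast, slow and shared contractile lists, 14 rose, none fell and 9 did not pass, with a median of 0.36, beside 19.3% rises over all tested genes. Not all of these are contractile genes, as the rises include the chaperone gene hsp90aa1.1 (0.50, SE 0.11) and the receptor gene musk. The median was 0.42, 0.21 and 0.32 on arrays 1, 2 and 3. In the fast fibre list, 5 of 9 rose, among them the tropomyosin gene tpma (0.54, SE 0.10) and the fast myosin light chain genes mylpfb (0.40, SE 0.09), mylpfa (0.35, SE 0.08) and myl1 (0.40, SE 0.10, second probe 0.47).

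In the slow fibre list, 4 of 6 rose: myl10 (0.44, SE 0.10), the slow myosin heavy chain genes smyhc1 (0.60, SE 0.15) and smyhc2 (0.51, SE 0.12) and the troponin gene tnnc1b (0.27, SE 0.09). Second probes of smyhc1 and smyhc2 gave -0.20 and -0.02. The brightest smyhc2 probe, at a mean log2 intensity of 6.88, was well above background on 3 of 3 arrays in morphant RNA and on 1 of 3 in wild-type RNA, so it was tested only through the group where it read higher. With both groups required above background, 3 of 6 slow fibre genes and 13 of the 23 contractile genes rose. Over all tested genes 1714 of 8908 then rose. The call of tnnc1b held in 3 of 12 alternatives and ended with any 1 array left out (0.20 to 0.34). Of 8 shared sarcomere and triad genes 5 rose, with the skeletal actin gene acta1a at 1.18 (SE 0.20), the desmin gene desma at 0.80 (SE 0.10), acta1b at 0.77 (SE 0.10) and musk, a receptor of the neuromuscular junction, at 0.47 (SE 0.10). Here too probes disagreed, with -0.41 for a second acta1b probe and -0.01 for a second musk probe. The second acta1b probe was itself called as lower (adjusted p = 0.0143 in limma). A single tested probe reports acta1a, and its arrays gave 1.87, 0.60 and 1.06. With marked spots kept, another acta1a probe that the marks had excluded stood for the gene. That probe had 0.17 and was not called, so probes of acta1a disagree in size.

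The count of contractile rises depended on the array set and on the probes that each set admitted. It was 6 of 23 without array 3, beside 1122 of 9288 over all tested genes. Without array 2 it was 11 of 23, beside 1301 of 9284. Without array 1 it was 12 of 29, with 2 falls, beside 1729 rises and 1978 falls of 10058. Without array 3 the calls of mylpfb (0.34), mylpfa (0.34), myl1 (0.41), smyhc1 (0.64), smyhc2 (0.48) and musk (0.47) ended. Without array 1 other probes stood for mylpfa (0.13) and musk (-0.07), which were not called. Another probe also stood for acta1b (-0.29), which was called as lower. On arrays 2 and 3 the probes of the main fit read 0.27 and 0.38 for mylpfa and 0.28 and 0.47 for musk. For acta1b that probe read 0.67 and 0.65. Without array 2 the calls of myl10 (0.37) and tnnc1b (0.28) ended. With marked spots kept, another probe likewise stood for mylpfa, at 0.22, and was not called. Probes of 8 further contractile genes could be tested once spots marked as outliers were kept. Then 14 of 31 rose, beside 1904 of 10253 over all tested genes. Of 35 contractile genes on the array, 23 passed both filters. With the mean of all probes of a gene, 10 of 23 rose, beside 1816 of 9227 over all tested genes.

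**Figure D3:**
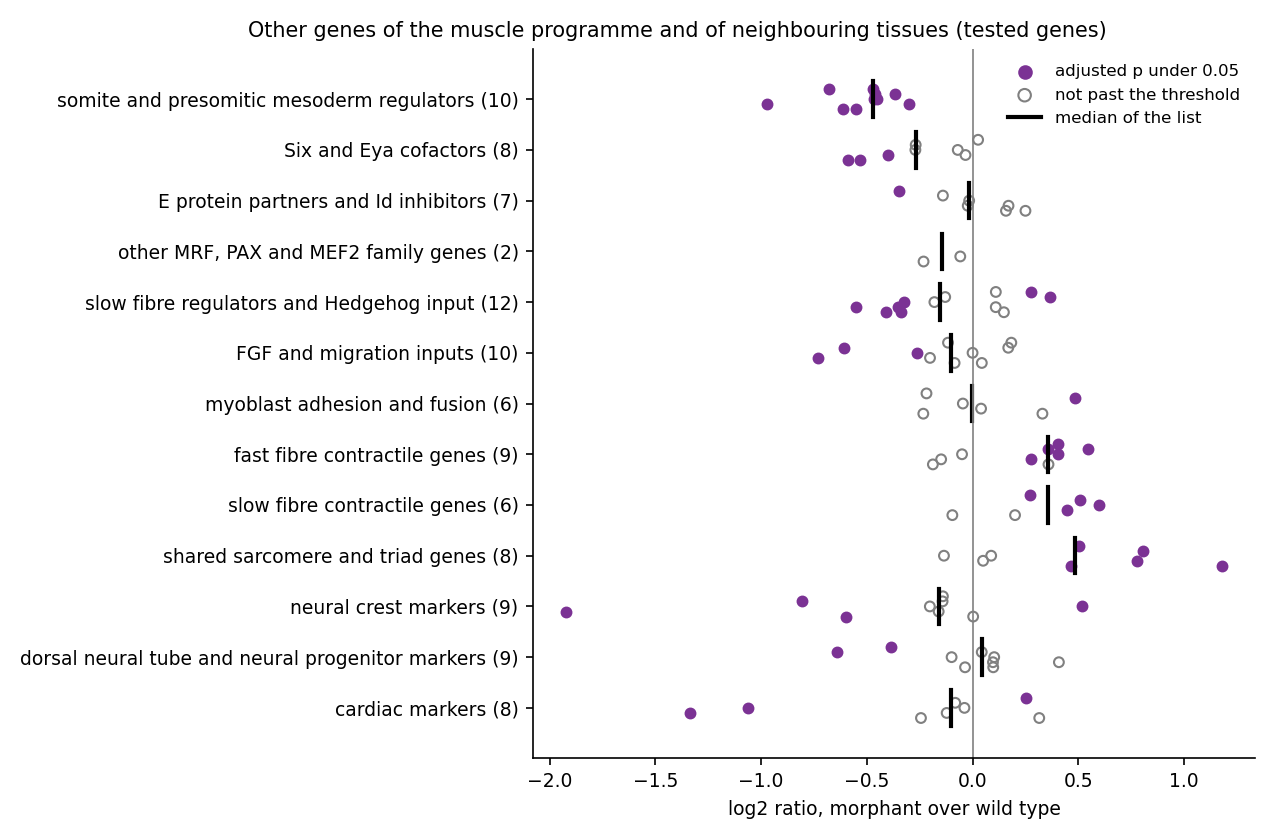
Log2 ratio of morphant over wild type (x axis) of the tested genes of 13 lists, without the members, with filled points for genes past an adjusted p of 0.05 and a bar at each list's median; the number of tested genes is in parentheses. All 10 somite and presomitic genes lie below 0 and are called, and the called genes of the 3 contractile lists lie above 0.

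Marker lists of other tissues that express some of these regulators had called shares of 44.4% (neural crest), 22.2% (dorsal neural tube) and 37.5% (cardiac), near or below the 41.3% of all tested genes. In the neural crest list, which bears on pax3a and prdm1a, 3 of 9 fell and 1 rose, with a median of -0.16. The falls were sox9b (-1.92, SE 0.09), snai1b (-0.81, SE 0.08) and sox10 (-0.60, SE 0.10), and the pigment cell regulator gene mitfa rose by 0.52 (SE 0.08, other probes 0.32 and 0.42). A dimmer tfap2c probe also passed, with 0.36 (SE 0.10), while the brightest probe of that gene had -0.14. The snai1b probe was well above background on 3 of 3 arrays in wild-type RNA and on 2 of 3 in morphant RNA, so it too was tested only through the group where it read higher, and with both groups required 2 of 8 fell. In the dorsal neural tube list, 2 of 9 fell, olig4 (-0.64, SE 0.09, second probe -0.12) and sox2 (-0.38, SE 0.09). Without array 1 another olig4 probe stood for the gene and was not called (-0.12). The called olig4 probe itself read -0.70 and -0.45 on arrays 2 and 3. The sox2 call ended without array 3 (-0.34). In the cardiac list, which bears on mef2ca, 2 of 8 fell, tbx20 (-1.34, SE 0.13) and gata5 (-1.06, SE 0.12, second probe -0.65), and myh6 rose (0.25, SE 0.08). The call of myh6 held in 2 of 12 alternatives and ended with any 1 array left out (0.20 to 0.28). Of the 3 lists, 10 genes each have a probe, and nppa of the cardiac list was the gene with none well above background. The mean log2 intensity over the tested neural crest genes was 11.61 to 11.62 in morphant RNA and 11.97 to 12.04 in wild-type RNA. For the neural tube list these ranges were 12.31 to 12.60 and 12.46 to 12.50, and for the cardiac list 11.03 to 11.11 and 11.33 to 11.38. The neural crest means include the large falls of sox9b and snai1b, and the cardiac means those of tbx20 and gata5. The median ratio of the cardiac list was -0.10. The part of these tissues in the members' values was not tested.

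The calls of all 4 members depended on how a trend of the ratios with intensity was treated. When arrays were only centred on their median, probes with a mean log2 intensity above 15 had median ratios of 0.87, 0.58 and -0.71 on arrays 1, 2 and 3. Those at or below 7 had -0.11, -0.07 and 0.10. The trend thus ran opposite on the dye-swapped array. With loess, which removes it within each array, the medians of the brightest probes were 0.04, 0.04 and -0.02. Under median centring alone none of the 8 members was called in limma, 1 of them (prdm1a) had an unadjusted p under 0.05, and 2.87% of all genes were called. The median over all tested genes then moved to 0.13.

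With median centring and a dye term, under which both dye orientations weigh equally, 4 members were called again, beside 30.3% of all genes. The values were -0.87 for prdm1a (SE 0.13, adjusted p = 3.5e-05), -0.54 for myf5 (SE 0.13, adjusted p = 0.00382), 0.46 for mef2ca (SE 0.14, adjusted p = 0.0211) and 0.40 for mef2d (SE 0.14, adjusted p = 0.0386). These are close in size to the loess values. Over all alternatives the adjusted p of prdm1a lay between 4.8e-06 and 0.245 and that of myf5 between 5.6e-04 and 0.538. The fit was added after the data were seen. Of the 103 tested genes of the lists, 48 were called with loess, 2 with median centring (sox9b and tbx20, both lower) and 39 with median centring and a dye term.

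**Figure D4:**
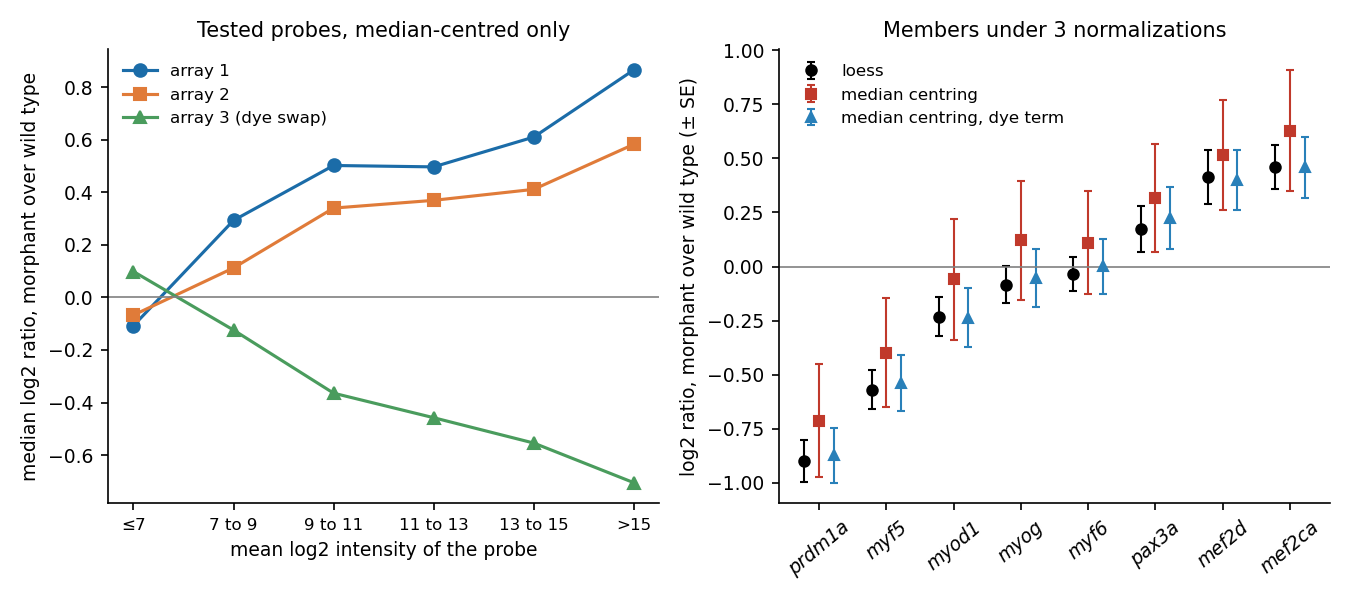
Left, the median log2 ratio of tested probes (y axis) in bins of mean log2 intensity (x axis) after median centring only, by array, which rises on arrays 1 and 2 and falls on the dye swap. Right, the log2 ratio (y axis, with moderated standard error) of the 8 tested members under loess, median centring, and median centring with a dye term, where the first and the last lie close together.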

How the data were processed

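The 3 arrays, of Agilent design 019161, were quantified by the authors in Agilent Feature Extraction, version 10.5.1.1 per the file headers and 8.5.1.1 per the submitters' processing notes. The deposited files give median pixel intensities of each spot and of its background in both dyes, processed intensities, and the log10 of the red to green ratio, per the file headers. The deposited value table holds the same log10 ratios, with the sign of array 3 turned (largest difference 5.0e-06).

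Values were recomputed from the median intensities with normexp (offset 50, which pulls dim ratios toward 0) and loess within arrays (limma 3.58.1, R 4.3.3). Outlier-marked and control spots had no weight. On array 1, 7.49% of the spots were marked, against 0.915% and 0.909% on arrays 2 and 3, and no spot was saturated. The ratio of array 3 was multiplied by -1. Channel levels were further scaled between arrays (Aquantile). The file headers put array 1 on slide 1 and arrays 2 and 3 on slide 2. Ratios correlated across probes at 0.837, 0.818 and 0.851 (arrays 1 and 2, 1 and 3, 2 and 3).

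Tested probes were unmarked on all 3 arrays and well above background on each in morphant RNA, or on each in wild-type RNA. Ratios were tested against 0 with lmFit and eBayes, two-sided. The number of arrays limits the precision. Dye orientation, and with it every direction, comes from the labels. Symbols come from RefSeq (GRCz12tu). No coordinates are given, because the files use another build. Members, lists and tests were chosen with earlier results of these data known. The text names every member and, in each of 13 lists, up to 4 called genes of smallest adjusted p. It also names the genes closest to prdm1a and myf5. Chosen after their values were seen were mef2aa, mef2cb, id2a, snai2, smyd1b, six1b, pbx2, pbx4, tbx16, mymk, tfap2c and hsp90aa1.1. The model code was tested on simulated data.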

Additional observations from a re-analysis of the deposited data

How the results depend on the processing

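The 4 called members kept their direction under every alternative run. All 4 calls ended with median centring in place of loess, where the member count was 0 and the count over the lists was 2 of 103. With array 1, 2 or 3 left out in turn, 4, 3 and 3 members were called. Of the list genes, 48 of 117, 36 of 104 and 33 of 103 were called. Without array 1 the 4 members were 1 rise and 3 falls, as myod1 came in and mef2d dropped out. Over all tested genes, 1729 rose and 1978 fell of 10058 without array 1. Without array 2 these counts were 1301 and 1537 of 9284. They were 1122 and 1482 of 9288 without array 3. The progenitor minus differentiation difference ran from -0.07 to 0.07 with an array left out. With all arrays, pax3a minus the mean of all 7 other members was 0.31. Some contractile genes turned sign. The value of smyhc2 was -0.020 with both channels required above background. That of acta1b was -0.40 with Agilent's processed log ratio and -0.29 (without array 1) to 0.84 with an array left out, and that of musk -0.14 with marked spots kept and -0.066 (without array 1) to 0.56 with an array left out. The probe that stood for a gene was picked anew in each alternative. The turned signs of smyhc2, acta1b and musk come from other probes of these genes, which disagree. Across 104 alternative values of the members, 93 kept their side of the threshold or stayed within the spread of the arrays. This count includes the 4 members not called, which keep their side by staying uncalled. It also includes changes of the background filter, which left the members' log2 values as they were. Of 12 alternatives, the calls of prdm1a and myf5 held in 11, that of mef2ca in 10 and that of mef2d in 8. No separate paired analysis was run, because the test of each array's ratio of morphant over wild type already uses the pairing. Among the members, signal near background limits pax7a and mef2d. Some list genes were dim as well, such as dock5, met and pcdh8 (mean log2 intensities of 6.96, 7.08 and 7.41).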
